A study of Mus musculus with 9 samples.

Results

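Interferon-stimulated genes are the genes that cells switch on when interferon binds its receptors, and 42 of them were followed here across 5 groups of myeloid cells sorted from the mouse peritoneal cavity. The members were chosen by name, as known targets of type I and type II interferon without the interferon regulatory factors. All 42 were present among the 24532 genes of the deposited expression table, and all 42 were among the 10526 genes that were tested because 2 or more libraries had them at 1 FPKM or above. FPKM counts fragments per kilobase of transcript, scaled to the sequencing of the library. The study compared MHCII+ cells of C57BL/6 mice at postnatal week 8 by RNA sequencing, with no treatment named in the labels. Its title concerns the cells that carry both CD11c, an integrin typical of dendritic cells, and CD115, the CSF-1 receptor of macrophages and monocytes, encoded by Csf1r. P-IV.I, labelled peritoneal dendritic cells, and P-IV.II, labelled small peritoneal macrophages, were both sorted as MHCII+ CD11c+ CD115+ cells. PcDC1 and PcDC2, labelled peritoneal dendritic cells of type 1 and type 2, were both MHCII+ CD11c+ CD115-. SPM, labelled small peritoneal macrophages, were MHCII+ CD11c- CD115+. The marker that separated the 2 groups inside a shared gate is not given in the sources used here. Each group had 2 libraries except PcDC1, which had 1. Nothing states that the 2 libraries of a group came from separate animals, so every p-value measures only the spread between these libraries, which may be technical.

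Type I interferons signal through IFNAR1 and IFNAR2 to a complex that contains STAT2 and IRF9 and binds the interferon-stimulated response element (ISRE) in front of its target genes. Type II interferon signals through IFNGR1 and IFNGR2 and acts on the gamma-activated site (GAS) of its target genes. The products sense viral nucleic acids, block viral RNA and protein synthesis, attack the vacuoles of intracellular microbes, or feed back on the pathway itself. Macrophages and dendritic cells express many of these genes at a low level without infection.

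The marker lists went with the labels in sum. Csf1r encodes CD115, and Itgax, among the dendritic cell markers, encodes CD11c, so their part follows from the sort. The 9 macrophage marker genes, Csf1r and Mertk among them, summed to 719 and 789 FPKM in P-IV.I, 2531 and 2227 in P-IV.II, 425 in PcDC1, 378 and 382 in PcDC2, and 8100 and 5577 in SPM. Mertk was listed at 0 in PcDC1 and in both PcDC2 libraries. Not every macrophage marker separated the groups. Cd68 made up most of the sums in PcDC1, at 412 FPKM, and in PcDC2, at 350 and 338. Fcgr1 was at 0.556 and 0.829 FPKM in P-IV.I, 0.576 and 0.165 in P-IV.II, and 6.73 and 2.95 in SPM. The 7 dendritic cell marker genes, Flt3 among them, summed to 452 and 513 FPKM in P-IV.I, 70.4 and 54.4 in P-IV.II, 251 in PcDC1, 655 and 887 in PcDC2, and 19.0 and 27.85 in SPM. Xcr1, a marker of type 1 dendritic cells, was at 131 FPKM in PcDC1 and at no more than 9.32 FPKM in any other library. No gene of the neutrophil or mesothelial lists reached an FPKM of 1 in any library, but genes of other lists did. The 8 B cell markers summed to 18.2 FPKM in PcDC2 replicate 2 and up to 123 in PcDC1, where Fcrla alone was at 95.6. The T and NK cell markers summed to 2.99 FPKM in SPM replicate 2 and up to 15.7 in PcDC2 replicate 2. The 7 mast cell markers summed to at most 10.85 FPKM, in PcDC1. Their part in the members' levels was not tested. Each library had 9115 to 9847 genes at 1 FPKM or more, and the depth behind them is unknown, because the table holds no counts. In bulk RNA, fewer cells of a type and less RNA per cell cannot be told apart.

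The regulatory sequence of the members is shown before their levels because the type I response acts through the ISRE. The members were chosen as known interferon targets, so a high share with these motifs is no separate support for that choice. RefSeq promoter windows of GRCm38.p6, which has the coordinates of mm10, reach from 250 bases before to 50 bases after a transcript start, and 31 of the 42 members have one. Each window was searched on both strands for the ISRE core, which is TTTC, any 2 bases and TTTC again, and for the GAS, which is TTC, any 3 bases and GAA. The ISRE core was present in 18 of 31 members (58.1%), against 3.99% of all 27025 genes with a window and 4.18% of the 8459 tested genes with one. The GAS was present in 8 of 31 members (25.8%), against 9.55% of all genes with a window and 8.31% of the tested ones. Bst2, Eif2ak2, Gbp7, Igtp and Oas1a held both motifs, and in Bst2 a GAS match overlapped an ISRE match. Of the 6 GTPase genes 5 held the ISRE core, all except Ifi47. A match describes letters and not a bound site, and a window without one says nothing about the factor. No window was at hand for Mx1, Mx2, Usp18, Oas2, Ifi204, Dhx58, Rtp4, Zbp1, Ifi27l2a, Parp9 and Parp14. The 250 bases upstream of 5 members are printed from RefSeq, chosen to show the antiviral, signalling, modifier and GTPase classes described in what follows. All are written 5′ to 3′ on the strand of the gene, and capitals mark ISRE core matches on either strand and, in Gbp7, also its GAS matches.
Ifit1, chr19:34640639-34640888, plus strand: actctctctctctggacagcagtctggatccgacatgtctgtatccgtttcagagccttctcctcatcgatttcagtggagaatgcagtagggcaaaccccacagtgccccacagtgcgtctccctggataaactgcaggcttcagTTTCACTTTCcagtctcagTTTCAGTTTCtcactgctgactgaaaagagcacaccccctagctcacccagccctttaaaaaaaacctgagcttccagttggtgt
Stat2, chr10:128270248-128270497, plus strand: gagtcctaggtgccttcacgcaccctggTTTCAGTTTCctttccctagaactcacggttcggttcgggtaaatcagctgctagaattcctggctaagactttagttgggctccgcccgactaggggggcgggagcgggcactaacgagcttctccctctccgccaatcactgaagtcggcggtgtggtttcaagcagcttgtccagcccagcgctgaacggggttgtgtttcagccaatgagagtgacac
Isg15, chr4:156200819-156201068, minus strand: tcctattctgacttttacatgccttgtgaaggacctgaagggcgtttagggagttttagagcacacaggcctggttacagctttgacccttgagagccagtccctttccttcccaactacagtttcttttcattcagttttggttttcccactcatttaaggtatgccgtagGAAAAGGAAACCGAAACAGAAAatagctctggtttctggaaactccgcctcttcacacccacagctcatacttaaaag
Gbp2, chr3:142620413-142620662, plus strand: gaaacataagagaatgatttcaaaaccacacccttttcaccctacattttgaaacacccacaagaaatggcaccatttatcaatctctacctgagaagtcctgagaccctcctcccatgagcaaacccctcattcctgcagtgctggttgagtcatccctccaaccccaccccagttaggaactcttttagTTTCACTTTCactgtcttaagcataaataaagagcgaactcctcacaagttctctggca
Gbp7, chr3:142530086-142530335, plus strand: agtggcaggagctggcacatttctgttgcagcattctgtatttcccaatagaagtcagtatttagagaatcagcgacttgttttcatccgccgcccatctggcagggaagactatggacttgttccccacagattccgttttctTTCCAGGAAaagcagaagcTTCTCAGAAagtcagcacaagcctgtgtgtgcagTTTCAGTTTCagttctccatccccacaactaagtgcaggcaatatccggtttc
Ifit1 has 2 ISRE cores close together, Isg15 has 3 that overlap on the opposite strand, and Gbp2, Gbp7 and Stat2 have 1 each. The core nearest the start begins at base -85 in Ifit1, -66 in Isg15, -59 in Gbp2, -53 in Gbp7 and -222 in Stat2.

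**Figure D1:**
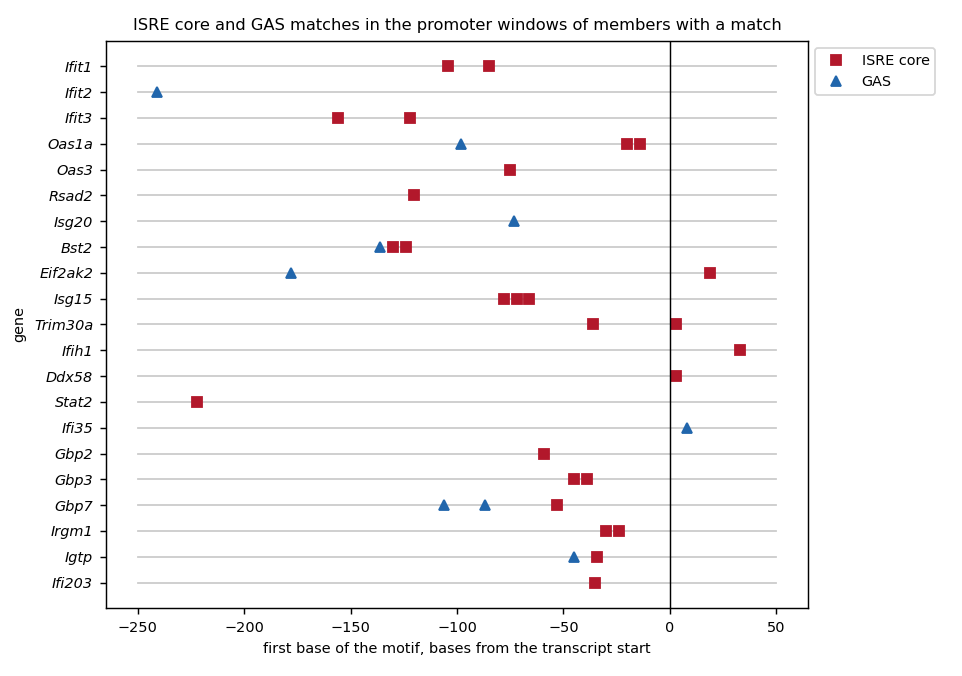
Positions of ISRE core (squares) and GAS (triangles) matches in the promoter windows of the members that hold either motif; the horizontal axis is the distance of the first base of the match from the transcript start, in bases. The squares lie between base -156 in Ifit3 and base 33 in Ifih1, except Stat2 at base -222, and those after the start are in Ddx58, Eif2ak2, Ifih1 and Trim30a.

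As a whole the members were highest in SPM and lowest in PcDC1. Their score, the mean of log2(FPKM + 1) over the 42 genes, was 3.62 ± 0.015 in P-IV.I, 3.16 ± 0.15 in P-IV.II, 3.495 ± 0.079 in PcDC2 and 3.98 ± 0.17 in SPM (SD, n = 2 each), and 2.75 in the single PcDC1 library. Both P-IV.II libraries, at 3.27 and 3.06, lay below the 6 libraries of the other replicated groups, and both SPM libraries, at 4.10 and 3.85, lay above them. The mean over all tested genes moved less, between 3.27 in PcDC1 and 3.60 in P-IV.I replicate 1. The members made up 0.155% and 0.162% of the total FPKM in P-IV.I, 0.138% and 0.125% in P-IV.II, 0.106% in PcDC1, 0.144% and 0.139% in PcDC2, and 0.228% and 0.227% in SPM.

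**Figure D2:**
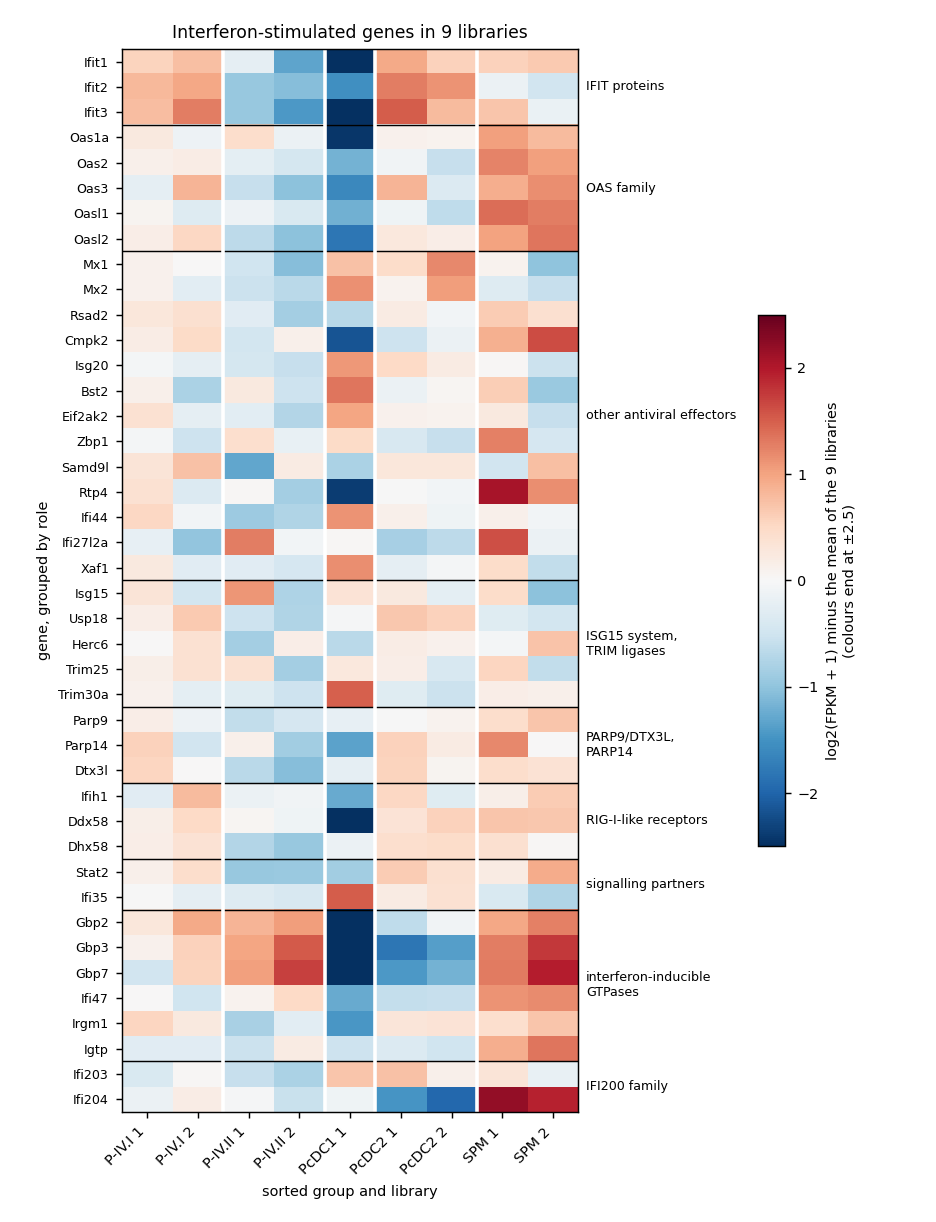
Level of each of the 42 genes in each library, as log2(FPKM + 1) minus the gene's mean over the 9 libraries, with genes in rows by role and libraries in columns by sorted group. Red is above and blue below the gene's mean; Gbp2, Gbp3 and Gbp7 are red in the P-IV.II and SPM columns and blue in PcDC2, while the IFIT genes are blue in P-IV.II and red in P-IV.I and PcDC2.

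Gene by gene, P-IV.II was the lowest of the 4 replicated groups for 27 of the 42 members (64.3%), against 37.1% of all tested genes. Both P-IV.II libraries lay below all 6 others for 15 members (35.7%), against 11.6% of all tested genes, and above all 6 others for 0 members, against 6.11%. SPM had the highest mean for 25 members (59.5%), against 23.6% of all tested genes. Both SPM libraries lay above all 6 others for 14 members (33.3%), against 7.34%, and below all 6 for 0 members, against 6.73%. PcDC2 stood at either end about as often for the members as for all tested genes. Both libraries lay above all 6 others for 5 members (11.9%), against 11.4%, namely Ifit2, Mx1, Isg20, Dhx58 and Ifi35. They lay below all 6 for 5 members (11.9%), against 9.83%, namely Gbp2, Gbp3, Gbp7, Ifi47 and Ifi204. P-IV.I had 0 members above all 6 others and 0 below, against 2.73% and 0.722% of all tested genes. With shares that small, 0 of 42 members is no trait of these genes. All 4 macrophage libraries of P-IV.II and SPM lay above all 4 of P-IV.I and PcDC2 for Ifi27l2a, Gbp3, Gbp7 and Ifi47. These are 9.52% of the members, near the 9.48% of all tested genes. The macrophage libraries lay below the 4 others for Ifit2, Ifit3, Mx2, Usp18 and Ifi35, which are 11.9% of the members, against 19.6%. With median-ratio rescaling of the libraries P-IV.II had the lowest mean for 25 members, against 29.9% of all tested genes. SPM then had the highest mean for 27 members, against 29.4%. With quantile normalization P-IV.II had the lowest mean for 23 members, against 28%, and SPM the highest for 26, against 27.3%.

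Not every role followed the order of all members. The 3 IFIT genes averaged 3.25 in P-IV.I, 1.41 in P-IV.II, 3.45 in PcDC2 and 2.60 in SPM on the log2(FPKM + 1) scale, and 0.213 in PcDC1, so that both groups labelled as dendritic cells with 2 libraries stood above both macrophage groups. The 6 GTPase genes ran the other way, with 4.86 in P-IV.I, 5.25 in P-IV.II, 2.32 in PcDC1, 4.06 in PcDC2 and 5.90 in SPM. The 5 OAS genes kept the order of all members, with 3.03 in P-IV.I, 2.47 in P-IV.II, 1.24 in PcDC1, 2.86 in PcDC2 and 4.004 in SPM. For the 13 other antiviral effectors the P-IV.I, P-IV.II, PcDC1, PcDC2 and SPM means were closer, at 3.13, 2.76, 3.28, 3.15 and 3.36.

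**Figure D3:**
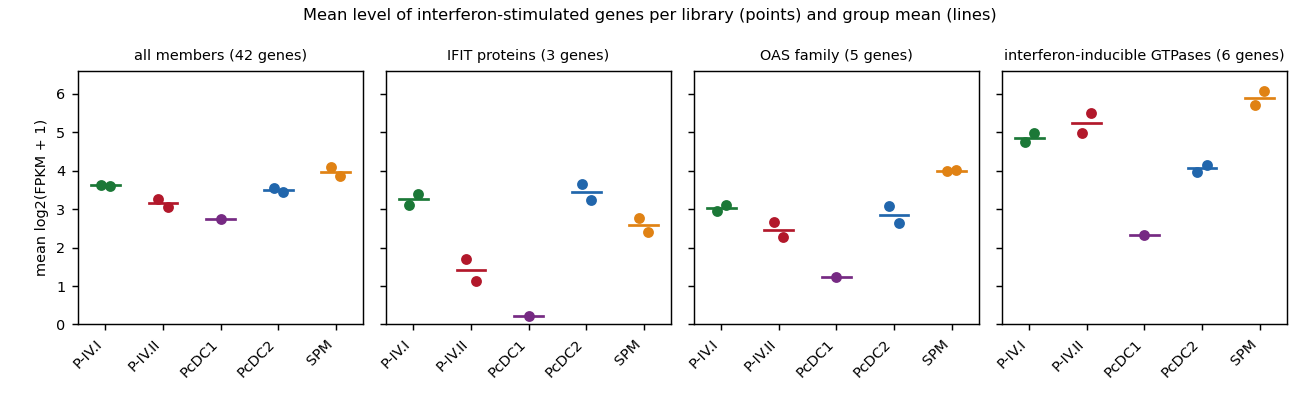
Mean log2(FPKM + 1) per library for all 42 members and for 3 roles; points are libraries and lines are group means. Over all members the P-IV.II points lie below and the SPM points above the other replicated groups; the IFIT panel has its low points in P-IV.II and PcDC1, and the GTPase panel in PcDC1 and PcDC2.

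Among the IFIT genes, whose products bind viral RNA and block its translation, Ifit2 separated the groups most sharply. Ifit2 (Entrez 15958, chromosome 19, 34550550 to 34576534) was at 6.81 and 7.71 FPKM in P-IV.I, 1.32 and 1.13 in P-IV.II, 0.556 in PcDC1, 9.80 and 8.78 in PcDC2, and 3.07 and 2.22 in SPM. The 4 libraries of P-IV.I and PcDC2 all lay above the 4 of P-IV.II and SPM, with no overlap. Ifit3 (Entrez 15959, chromosome 19, 34583119 to 34588982) was at 8.61 and 12.7 FPKM in P-IV.I, 1.91 and 1.08 in P-IV.II, 15.2 and 8.83 in PcDC2, and 8.09 and 4.04 in SPM, and was listed at 0 in PcDC1. Ifit1 (Entrez 15957, chromosome 19, 34640889 to 34650009), whose promoter with 2 ISRE cores is printed above, was at 7.54 and 8.78 FPKM in P-IV.I, 4.03 and 1.34 in P-IV.II, 10.3 and 7.75 in PcDC2, and 7.76 and 8.24 in SPM, and was listed at 0 in PcDC1. P-IV.II was below every other replicated library for all 3 genes. Ifit3 has the near-copy Ifit3b, and Ifit1 has near-copies too, so reads may be split between them and the values of these genes are uncertain to that extent.

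The OAS genes encode 2′-5′ oligoadenylate synthetases, which activate the RNase that degrades viral RNA, and their relatives. Oasl2 (Entrez 23962, chromosome 5, 114896926 to 114912245) was at 19.7 and 25.5 FPKM in P-IV.I, 10.8 and 8.06 in P-IV.II, 4.30 in PcDC1, 21.2 and 19.9 in PcDC2, and 36.4 and 46.1 in SPM. Oasl1 (Entrez 231655, chromosome 5, 114923143 to 114937911), which in the mouse limits translation of IRF7, was at 1.66 and 1.02 FPKM in P-IV.I, 1.33 and 0.953 in P-IV.II, 0.108 in PcDC1, 1.34 and 0.629 in PcDC2, and 5.68 and 5.19 in SPM. Oas2 (Entrez 246728, chromosome 5, 120730333 to 120749886) was at 1.48 and 1.58 FPKM in P-IV.I, 0.915 and 0.680 in P-IV.II, 1.14 and 0.530 in PcDC2, and 4.42 and 3.62 in SPM, and was listed at 0 in PcDC1. SPM was above every other library for these 3 genes. Oas1a, the most abundant of the family, was at 37.2 and 28.9 FPKM in P-IV.I, 43.0 and 28.25 in P-IV.II, 5.02 in PcDC1, 33.9 and 33.6 in PcDC2, and 65.1 and 55.0 in SPM. Oas3 was at 4.42 and 10.5 FPKM in P-IV.I, 3.28 and 2.097 in P-IV.II, 1.08 in PcDC1, 10.4 and 4.02 in PcDC2, and 10.8 and 13.2 in SPM. Both again had their highest values in SPM, and P-IV.I and PcDC2 overlapped for both. Oas1a shares sequence with Oas1g and other tandem copies.

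Of the other antiviral effectors, the most abundant was Ifi27l2a, a small mitochondrial protein gene, at 56.6 and 32.2 FPKM in P-IV.I, 159.8 and 61.7 in P-IV.II, 66.3 in PcDC1, 36.0 and 40.8 in PcDC2, and 199.6 and 58.5 in SPM. Every macrophage library lay above the 4 of P-IV.I and PcDC2, but the 2 SPM libraries lay farther apart than those 4 did. Rtp4, which encodes a chaperone of membrane receptors, was at 17.7 and 10.45 FPKM in P-IV.I, 13.7 and 7.03 in P-IV.II, 1.803 in PcDC1, 13.4 and 12.8 in PcDC2, and 59.1 and 31.5 in SPM. Cmpk2, a mitochondrial nucleotide kinase encoded beside Rsad2, was at 6.01 and 7.53 FPKM in P-IV.I, 3.47 and 5.76 in P-IV.II, 0.379 in PcDC1, 3.28 and 4.58 in PcDC2, and 10.3 and 18.0 in SPM. SPM stood above every other library for both. Rsad2, the radical SAM enzyme viperin, ranged from 0.893 FPKM in P-IV.II replicate 2 to 4.26 in SPM replicate 1.

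Mx1, a dynamin-like GTPase that blocks influenza virus and is encoded by a defective allele in most laboratory strains, was at 3.98 and 3.67 FPKM in P-IV.I, 2.28 and 1.24 in P-IV.II, 6.70 in PcDC1, 5.39 and 9.70 in PcDC2, and 3.95 and 1.303 in SPM. Mx2 was at 0.985 and 0.539 FPKM in P-IV.I, 0.265 and 0.158 in P-IV.II, 3.10 in PcDC1, 0.951 and 2.81 in PcDC2, and 0.473 and 0.237 in SPM. The dendritic cell groups PcDC1 and PcDC2 held the highest values of both genes, which are near-copies of each other. Ifi44 was at 1.69 and 0.791 FPKM in P-IV.I, 0 and 0.112 in P-IV.II, 3.10 in PcDC1, 1.04 and 0.745 in PcDC2, and 1.03 and 0.773 in SPM, and was thus at or near 0 in P-IV.II alone. The ribonuclease gene Isg20 ranged from 3.68 FPKM in P-IV.II replicate 2 to 13.7 in PcDC1, the tetherin gene Bst2 from 21.98 in SPM replicate 2 to 109.9 in PcDC1, and Eif2ak2, the kinase PKR, from 1.20 in P-IV.II replicate 2 to 6.21 in PcDC1. Zbp1, a sensor of Z-form nucleic acid, ranged from 16.3 FPKM in PcDC2 replicate 2 to 60.4 in SPM replicate 1, and the proapoptotic gene Xaf1 from 2.90 in SPM replicate 2 to 12.35 in PcDC1. Samd9l, a restriction factor, ranged from 10.97 FPKM in P-IV.II replicate 1 to 48.7 in SPM replicate 2. For these 6 genes the replicates of a group often differed as much as the groups, and only Isg20 had a group, PcDC2, above every other replicated library.

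In the ISG15 system, Usp18, the protease that removes ISG15 and also blocks signalling at IFNAR2, was the most abundant member. Usp18 (Entrez 24110, chromosome 6, 121245906 to 121270917) was at 30.4 and 42.9 FPKM in P-IV.I, 18.4 and 15.6 in P-IV.II, 26.2 in PcDC1, 43.5 and 40.3 in PcDC2, and 21.5 and 19.1 in SPM. P-IV.I and PcDC2 lay above P-IV.II and SPM without overlap. Isg15, the ubiquitin-like modifier itself, did not follow it, at 11.6 and 6.33 FPKM in P-IV.I, 20.7 and 4.93 in P-IV.II, 11.8 in PcDC1, 11.04 and 7.55 in PcDC2, and 12.97 and 3.97 in SPM. The 2 P-IV.II libraries held nearly the whole range of Isg15. Herc6, a ligase for ISG15 in the mouse, ranged from 2.92 FPKM in P-IV.II replicate 1 to 10.6 in SPM replicate 2, and Trim25, a ligase that acts on RIG-I, from 5.78 in P-IV.II replicate 2 to 16.7 in SPM replicate 1. Trim30a, a TRIM ligase gene of the mouse, ranged from 16.9 FPKM in PcDC2 replicate 2 to 71.9 in PcDC1.

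Dtx3l, a ubiquitin ligase that works with PARP9, was at 21.6 and 14.7 FPKM in P-IV.I, 8.77 and 6.55 in P-IV.II, 12.4 in PcDC1, 22.1 and 15.5 in PcDC2, and 20.2 and 19.2 in SPM. Its neighbour Parp9 was at 17.2 and 13.8 FPKM in P-IV.I, 9.68 and 11.1 in P-IV.II, 13.1 in PcDC1, 15.2 and 16.25 in PcDC2, and 20.9 and 25.4 in SPM. P-IV.II was below every other library for both. Parp14, an ADP-ribosyltransferase encoded beside them, ranged from 0.650 FPKM in PcDC1 to 8.53 in SPM replicate 1. Among the cytosolic sensors of viral RNA, Dhx58, the regulator LGP2, was at 19.8 and 22.9 FPKM in P-IV.I, 10.2 and 8.58 in P-IV.II, 15.9 in PcDC1, 23.9 and 24.4 in PcDC2, and 23.4 and 18.0 in SPM. Ddx58, which encodes RIG-I, was at 7.13 and 9.29 FPKM in P-IV.I, 6.62 and 5.78 in P-IV.II, 8.33 and 9.97 in PcDC2, and 10.8 and 10.7 in SPM, and was listed at 0 in PcDC1. Both genes were again lowest of the replicated groups in P-IV.II, while Ifih1, which encodes MDA5, overlapped between all 4 replicated groups except P-IV.II and SPM, with a range from 2.06 FPKM in PcDC1 to 11.6 in P-IV.I replicate 2.

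Stat2 (Entrez 20847, chromosome 10, 128270498 to 128292853), the subunit through which the type I receptor complex activates transcription, was at 10.5 and 13.4 FPKM in P-IV.I, 4.47 and 4.56 in P-IV.II, 4.79 in PcDC1, 15.3 and 12.98 in PcDC2, and 11.1 and 19.1 in SPM. P-IV.II was again the lowest replicated group, with hardly any difference between its 2 libraries. Ifi35, which encodes a partner of NMI, was at 50.3 and 43.7 FPKM in P-IV.I, 40.6 and 38.5 in P-IV.II, 147.1 in PcDC1, 58.9 and 66.8 in PcDC2, and 38.7 and 29.95 in SPM. Its order thus ran from PcDC1 through PcDC2 and P-IV.I to the macrophage groups, where P-IV.II and SPM overlapped.

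The products of the GTPase genes attack the vacuoles of intracellular microbes. Gbp2, Gbp3, Gbp7 and Ifi47 set PcDC2 apart from the other replicated groups, while Igtp and Irgm1 did not. Gbp3 (Entrez 55932, chromosome 3, 142560016 to 142573213) was at 37.7 and 52.5 FPKM in P-IV.I, 69.2 and 102 in P-IV.II, 3.28 in PcDC1, 9.14 and 12.7 in PcDC2, and 85.9 and 119.6 in SPM. Gbp7 (Entrez 229900, chromosome 3, 142530336 to 142550151) was at 7.68 and 16.6 FPKM in P-IV.I, 23.3 and 38.2 in P-IV.II, 0.0973 in PcDC1, 3.47 and 4.29 in PcDC2, and 28.8 and 45.9 in SPM. For both genes SPM and P-IV.II overlapped, P-IV.I lay below them, PcDC2 below P-IV.I, and PcDC1 lowest. Gbp2 (Entrez 14469, chromosome 3, 142620663 to 142638008) was at 29.1 and 46.8 FPKM in P-IV.I, 44.0 and 50.6 in P-IV.II, 15.1 and 22.4 in PcDC2, and 47.5 and 58.7 in SPM, and was listed at 0 in PcDC1. Ifi47, an immunity-related GTPase, was at 34.55 and 23.9 FPKM in P-IV.I, 36.4 and 48.9 in P-IV.II, 13.6 in PcDC1, 22.2 and 22.6 in PcDC2, and 75.2 and 79.0 in SPM. Both were likewise lowest in PcDC1 and PcDC2. Igtp, a relative of Ifi47, was at 14.7 and 14.7 FPKM in P-IV.I, 12.2 and 20.9 in P-IV.II, 12.3 in PcDC1, 14.0 and 12.5 in PcDC2, and 34.6 and 47.0 in SPM, where it stood alone. Irgm1, which regulates the other immunity-related GTPases, was at 66.1 and 53.8 FPKM in P-IV.I, 25.6 and 37.6 in P-IV.II, 15.8 in PcDC1, 56.0 and 58.0 in PcDC2, and 61.0 and 74.0 in SPM, and was the GTPase gene that was lowest of the replicated groups in P-IV.II. The Gbp genes are similar to each other and to further copies in the same cluster, so their reads may be shared.

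In the IFI200 family of DNA-binding proteins, Ifi204 (Entrez 15951, chromosome 1, 173747293 to 173767069), a cytosolic and nuclear DNA sensor, was at 7.12 and 9.16 FPKM in P-IV.I, 7.79 and 5.07 in P-IV.II, 7.35 in PcDC1, 2.21 and 1.299 in PcDC2, and 40.2 and 33.0 in SPM. SPM stood far above every other library and PcDC2 below, while P-IV.I and P-IV.II overlapped. Its relative Ifi203 was at 9.66 and 13.3 FPKM in P-IV.I, 8.35 and 7.05 in P-IV.II, 21.35 in PcDC1, 22.2 and 14.3 in PcDC2, and 16.4 and 11.1 in SPM, with P-IV.II below every other library. The family has many close copies, and reads may be shared among them.

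**Figure D4:**
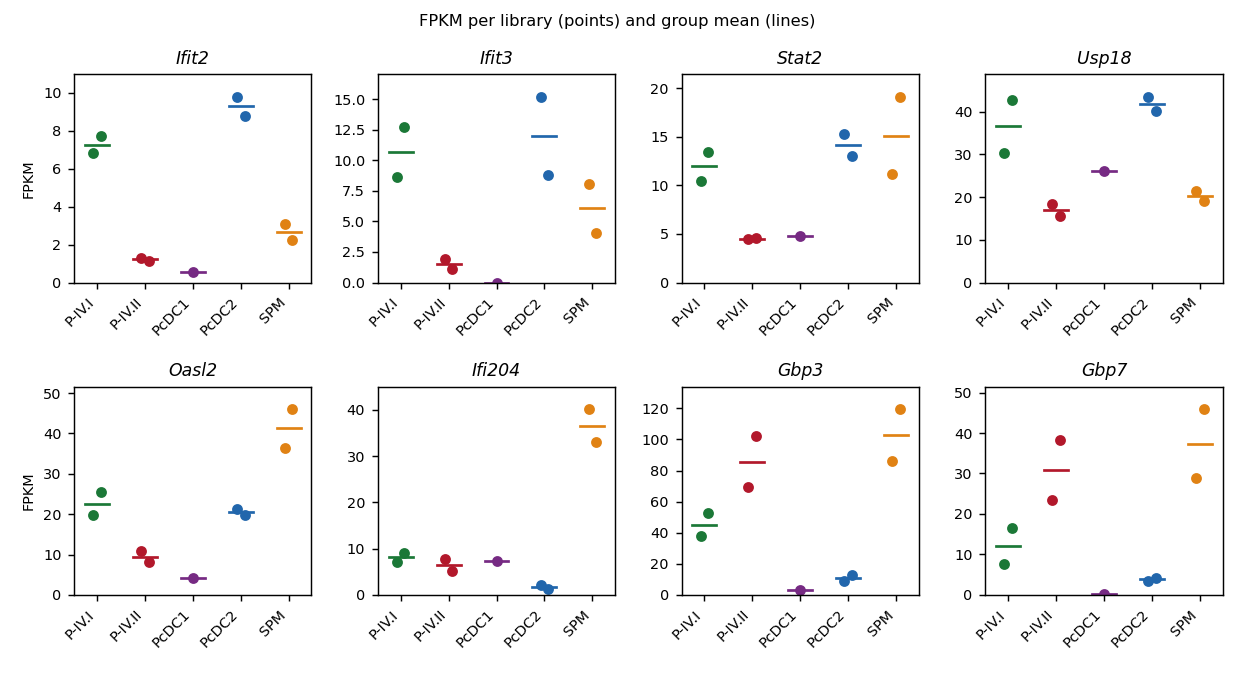
FPKM of 8 members in each library (points) with the group mean (lines), groups on the horizontal axis and FPKM on the vertical axis, each panel from 0 on its own scale. Ifit2 and Usp18 are higher in P-IV.I and PcDC2 than in P-IV.II and SPM, Stat2 and Ifit3 are low in P-IV.II and PcDC1, Gbp3 and Gbp7 are low in PcDC1 and PcDC2, and Oasl2 and Ifi204 are highest in SPM.

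P-IV.I and P-IV.II are the labelled dendritic cells and macrophages of the CD11c+ CD115+ gate. Of the 42 members, 9 were higher in P-IV.I, 0 were lower and 33 did not pass, where 9.61% of all tested genes passed in either direction, 6.51% being higher and 3.11% lower. The 9 were all 3 IFIT genes, the synthetase relative Oasl2, Ifi44, Usp18, Dtx3l, Dhx58 and Stat2, so that 7 of the 9 roles had a member among them. The median log2 fold change of the members was 0.49, against 0.19 for all tested genes, and 32 of the 42 were positive. The GTPase genes went the other way without passing, with 5 of 6 negative and Gbp7 at -1.32 ± 0.41 (limma, adjusted p = 0.0865). Fold changes here and in what follows are differences of log2(FPKM + 1), which understate the change of genes with low values, and are given ± SE with Benjamini-Hochberg adjusted two-sided p-values from limma over all tested genes.

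Ifit3 had the largest change in P-IV.I against P-IV.II, 2.22 ± 0.39 (limma, adjusted p = 0.0119). Ifit2 was higher by 1.90 ± 0.24 (limma, adjusted p = 0.00292), and Ifit1 by 1.41 ± 0.37 (limma, adjusted p = 0.0497). Stat2, the signalling subunit, was higher by 1.22 ± 0.30 (limma, adjusted p = 0.0403). Oasl2 was higher by 1.18 ± 0.26 (limma, adjusted p = 0.0281) and Dtx3l by 1.14 ± 0.29 (limma, adjusted p = 0.0485). Dhx58, Ifi44 and Usp18 had changes of 1.11, 1.06 and 1.05. Both P-IV.I libraries lay above both P-IV.II libraries for 24 members, against 36.2% of all tested genes, and the reverse held for Ifi27l2a, Gbp3, Gbp7 and Ifi47, against 19.6%. The count of 9 rests on the scaling and on every library. It was 3 with median-ratio rescaling and 2 with quantile normalization. It also fell when any library of P-IV.I or P-IV.II was left out, which leaves 1 library in that group. The share of all tested genes that passed in those fits is not given here, so a general loss of calls cannot be told apart. Ifit2 alone passed in every alternative. Rescaling moved the median of all tested genes from 0.19 to -0.012 with median ratios and to 0.010 with quantiles, and changed the split of all called genes from 685 higher and 327 lower to 466 and 518, and to 464 and 448; the members' median, 0.29 and 0.25, stayed above it.

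Marker lists of other cells and states also differed between these groups. Genes of the immediate early response, which handling can induce, summed to 16700 and 17920 FPKM in P-IV.I and to 14140 and 5913 in P-IV.II. The 10 markers of plasmacytoid dendritic cells, the strongest producers of type I interferon, summed to 94.2 and 46.0 FPKM in P-IV.I and to 41.1 and 43.7 in P-IV.II, so that replicate 2 of P-IV.I was close to P-IV.II. The genes of this list did not all go the same way. Spib was at 49.5 and 8.64 FPKM in P-IV.I and at 1.29 and 0.122 in P-IV.II, while Smim5 and Ly6d were higher in P-IV.II. The 6 markers of type 2 dendritic cells summed to 3641 and 3222 FPKM in P-IV.I and to 1694 and 1250 in P-IV.II. Of the plasmacytoid markers 7 reached an FPKM of 1 in any library, and the defining marker Siglech was at 0.172 and 0.130 FPKM in P-IV.I and listed at 0 in both P-IV.II libraries. Their part in the result was not tested.

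PcDC2 and SPM are the dendritic cells and macrophages that carry only CD11c or only CD115. In PcDC2, 11 members were lower than in SPM, 3 were higher and 28 did not pass, where 19.7% of all tested genes passed, 8.46% lower and 11.2% higher. The lower members were 5 of the 6 GTPase genes, 3 of the 5 OAS genes, Cmpk2, Rtp4 and Ifi204. The higher ones were Ifit2, Usp18 and Ifi35. The members' median was -0.22, against 0.13 for all tested genes.

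Ifi204 changed most, by -3.78 ± 0.30 in PcDC2 against SPM (limma, adjusted p = 0.000112). Gbp3 changed by -3.12 ± 0.32 (limma, adjusted p = 0.000328) and Gbp7 by -2.94 ± 0.41 (limma, adjusted p = 0.00177). The remaining lower members lay between -1.74 for Ifi47 (limma, adjusted p = 0.00259) and -0.96 for Oasl2, with Oasl1 at -1.72 ± 0.26 (limma, adjusted p = 0.00283) and Rtp4 at -1.65 ± 0.42 (limma, adjusted p = 0.0263). Ifit2 was higher by 1.51 ± 0.24 (limma, adjusted p = 0.00306), Usp18 by 1.01 and Ifi35 by 0.86. All 5 OAS genes had negative and all 3 IFIT genes positive changes, of which 3 and 1 passed. Of the 8 lower members with a promoter window, 4 held the ISRE core. Median-ratio rescaling left 1 member higher and 12 lower, and the count of 14 was 9 without PcDC2 replicate 1 and 9 without PcDC2 replicate 2. The split of all called genes was 950 higher and 1087 lower under that rescaling and 1047 and 1050 with quantile normalization, in place of 1178 and 891. The same marker lists differed here too: the immediate early genes summed to 19150 and 14060 FPKM in PcDC2 and to 5486 and 1196 in SPM, the plasmacytoid markers to 85.8 and 75.4 in PcDC2 and to 25.03 and 21.2 in SPM, and 6 monocyte markers to 344.2 and 368.3 in PcDC2 and to 911.6 and 1121 in SPM. Siglech was at 2.03 and 1.65 FPKM in PcDC2 and at 0 and 0.0124 in SPM, and the part of these lists in the result was not tested.

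**Figure D5:**
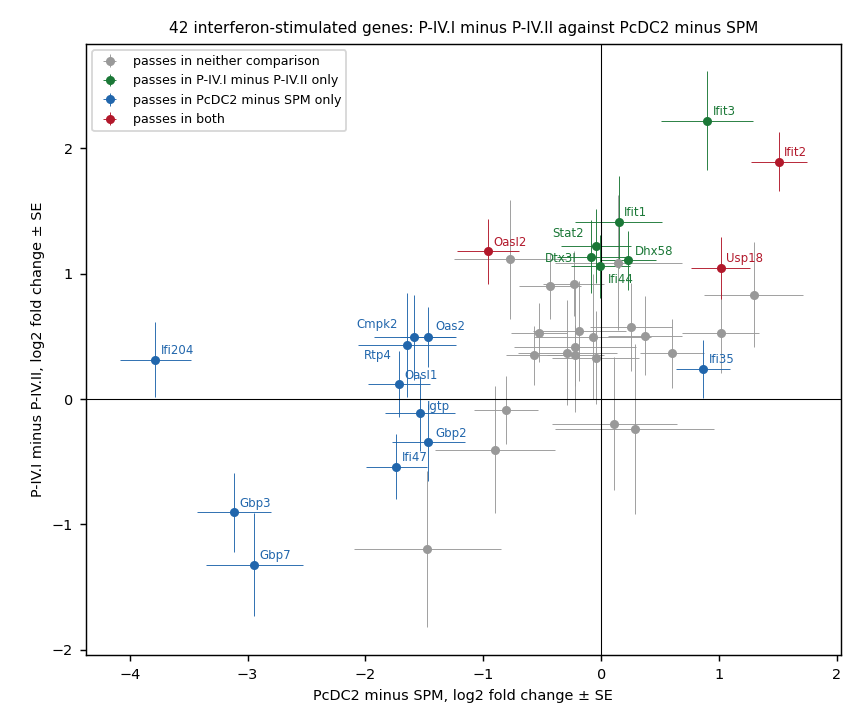
Log2 fold changes (± SE) of the 42 members for PcDC2 minus SPM (horizontal) and P-IV.I minus P-IV.II (vertical), coloured by which comparison they passed in. Ifit2 and Usp18 are positive in both, Oasl2 is positive on the vertical axis at 1.18 but negative on the horizontal one at -0.96, and Ifi204, Gbp3 and Gbp7 lie far to the left.

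Whether the members differ in the same way inside and outside the CD11c+ CD115+ gate was tested as the difference of the 2 fold changes, P-IV.I minus P-IV.II less PcDC2 minus SPM. There were 3 members that passed, all positive, where 1.11% of all tested genes passed, 1.01% positive and 0.105% negative. Ifi204 had a difference of 4.10 ± 0.42 (limma, adjusted p = 0.00666), from a fold change of 0.31 inside the gate and -3.78 outside it. Oasl2 had 2.14 ± 0.37 (limma, adjusted p = 0.0415) and is the only member that passed in both comparisons with opposite signs. Oas2 had 1.97 ± 0.34 (limma, adjusted p = 0.0415). The median difference over the members was 0.93, against 0.051 for all tested genes, and 36 of the 42 were positive. Ifi204 passed in every alternative, whereas Oasl2 and Oas2 did not pass when any 1 of the 8 libraries compared was left out, so that the count was 1 in each of those fits.

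P-IV.II and SPM share the macrophage label and differ by CD11c. Of the members 4 were lower in P-IV.II and 0 were higher, where 1.14% of all tested genes passed, 0.903% lower and 0.238% higher. They were Ifi204, with -2.36 ± 0.30 (limma, adjusted p = 0.0150), Oasl2 with -2.02 ± 0.26 (limma, adjusted p = 0.0150), Oasl1 with -1.59 ± 0.26 (limma, adjusted p = 0.0362) and Oas2 with -1.48 ± 0.24 (limma, adjusted p = 0.0327). Of the 4, 3 belong to the OAS family. The members' median was -0.73, against -0.065 for all tested genes, and 3 of the 42 were positive. Both P-IV.II libraries lay above both SPM libraries for 0 members, against 16.2% of all tested genes, while both SPM libraries lay above both P-IV.II libraries for 25, against 22.9%. The Gbp genes were not among the members that passed, with Gbp3 at -0.27 and Gbp7 at -0.28. The immediate early genes summed to 14140 and 5913 FPKM in P-IV.II and to 5486 and 1196 in SPM, and the monocyte markers to 645.9 and 756.5 in P-IV.II and to 911.6 and 1121 in SPM. Their part in the result was not tested. The count of 4 was 0 without P-IV.II replicate 2, without either SPM replicate 1 or SPM replicate 2, and in a fit on only these 2 groups, and 1 when replicate 1 of P-IV.II was left out.

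P-IV.I and SPM differ by label and by CD11c. Of the members 7 were lower in P-IV.I and 1 was higher, where 11% of all tested genes passed, 4.58% lower and 6.41% higher. Ifi204 changed by -2.04 ± 0.30 (limma, adjusted p = 0.00420). Gbp7 changed by -1.60 ± 0.41 (limma, adjusted p = 0.0456), Rtp4 by -1.59 ± 0.42 (limma, adjusted p = 0.0473), Oasl1 by -1.47 ± 0.26 (limma, adjusted p = 0.00985), Igtp by -1.40 ± 0.30 (limma, adjusted p = 0.0212) and Ifi47 by -1.39 ± 0.26 (limma, adjusted p = 0.0121). Oas2 was the other lower member, at -0.99. Ifit2 was higher, by 1.19 ± 0.24 (limma, adjusted p = 0.0151). The members' median was -0.20, against 0.12 for all tested genes. The immediate early genes summed to 16700 and 17920 FPKM in P-IV.I and to 5486 and 1196 in SPM, the monocyte markers to 525.5 and 613.6 in P-IV.I and to 911.6 and 1121 in SPM, and the plasmacytoid markers to 94.2 and 46.0 in P-IV.I and to 25.03 and 21.2 in SPM, and their part was not tested. The count of 8 was 4 without SPM replicate 1, 3 without SPM replicate 2, 3 when replicate 1 of P-IV.I was left out and 2 without its replicate 2. Quantile normalization gave 550 higher and 578 lower among all called genes and median-ratio rescaling 516 and 633, in place of 675 and 482, and the member counts were then 1 higher with 8 lower, and 1 higher with 10 lower.

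P-IV.I and PcDC2, the groups labelled dendritic cells on either side of the CD115 gate, had few calls over all tested genes, and few among the members. Gbp3 was the 1 member that passed, higher in P-IV.I by 1.95 ± 0.32 (limma, adjusted p = 0.0421), where 0.732% of all tested genes passed, 0.599% higher and 0.133% lower. The other members with large differences were Ifi204 at 1.74 ± 0.30 (limma, adjusted p = 0.0531) and Gbp7 at 1.35 ± 0.41 (limma, adjusted p = 0.324), neither of which passed. The members' median was 0.057, against -0.0065 for all tested genes. Gbp3 did not pass without any 1 of the 4 libraries, with median-ratio rescaling or with a pseudocount of 5. A p that misses the threshold does not show that the other members were alike.

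P-IV.II and PcDC2 are both CD11c+ and differ by label and by CD115, and their comparison had the most member calls. In all, 12 members were lower in P-IV.II and 5 were higher, where 20.7% of all tested genes passed, 13.2% lower and 7.52% higher. The lower ones were the 3 IFIT genes, Oasl2, Mx1, Mx2, Ifi44, Usp18, Dtx3l, Dhx58, Stat2 and Ifi203. The higher ones were the GTPase genes Gbp2, Gbp3, Gbp7 and Ifi47, and Ifi204. The members' median was -0.52, against -0.17 for all tested genes. This comparison shares its P-IV.II libraries with the one inside the gate and its PcDC2 libraries with PcDC2 minus SPM, so it adds no separate support to either. The plasmacytoid markers summed to 41.1 and 43.7 FPKM in P-IV.II and to 85.8 and 75.4 in PcDC2, the monocyte markers to 645.9 and 756.5 in P-IV.II and to 344.2 and 368.3 in PcDC2, and the immediate early genes to 14140 and 5913 in P-IV.II and to 19150 and 14060 in PcDC2, and their part was not tested.

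Gbp3 was higher in P-IV.II than in PcDC2 by 2.85 ± 0.32 (limma, adjusted p = 0.000629) and Gbp7 by 2.67 ± 0.41 (limma, adjusted p = 0.00333). Ifit3 changed by -2.36 ± 0.39 (limma, adjusted p = 0.00466), Ifit2 by -2.21 ± 0.24 (limma, adjusted p = 0.000515), Mx1 by -1.61 ± 0.42 (limma, adjusted p = 0.0303) and Ifit1 by -1.54 ± 0.37 (limma, adjusted p = 0.0215). The GTPase genes Igtp and Irgm1 did not pass, Irgm1 being at -0.86, and of the 5 OAS genes only Oasl2 did. The count of 17 was 11 when replicate 1 of P-IV.II was left out, 5 without its replicate 2, 7 when replicate 1 of PcDC2 was left out and 4 without its replicate 2. Median-ratio rescaling gave 9 members lower and 5 higher and quantile normalization 7 and 5, with 1005 lower and 1067 higher, and 988 and 971, among all called genes in place of 1391 and 792.

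PcDC1 has 1 library, so its values carry no test. It was below all 8 other libraries for 18 members (42.9%), near the 39.2% of all tested genes, and above all 8 for 8 members (19.0%), against 26.9%. The library thus stood at an end for many genes of the whole table. Compared with PcDC2 were the 40 members at an FPKM of at least 1 in PcDC1 or in the PcDC2 mean. Of these, 17 (42.5%) were lower in PcDC1 by at least 1 on the log2(FPKM + 1) scale, against 31.0% of all genes so compared. By as much, 6 (15.0%) were higher, against 20.3%. The median difference was -0.67, against -0.33 for all such genes. Gbp2, Ifit3, Ddx58 and Ifit1 were listed at 0 in PcDC1. At the other end, Trim30a differed by 1.91, Ifi204 by 1.62, Bst2 by 1.38 and Xaf1 by 1.29. These 4 are a ligase gene, a DNA sensor gene, the tetherin gene and a proapoptotic gene.

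Many members are neighbours in the genome, and the choice by name took several genes of the same families together. Of the 42 members, 24 lie within 1 Mb of another, in 10 groups. No share over all genes was computed for this count or for the patterns that neighbours share. Both are descriptions of the chosen genes. The Ifit2, Ifit3 and Ifit1 genes span 99 kb of chromosome 19 (34550550 to 34650009), and all 3 were lowest of the replicated groups in P-IV.II and highest in PcDC2. The Gbp7, Gbp3 and Gbp2 genes span 108 kb of chromosome 3 (142530336 to 142638008), and all 3 were lowest of the replicated groups in PcDC2 and highest in SPM. Neighbours did not always share a pattern. Irgm1 and Ifi47 lie within 232 kb of chromosome 11 (48865245 to 49096987), and Irgm1 was lowest in P-IV.II while Ifi47 was lowest in PcDC2. Likewise Dhx58 and Ifi35, within 764 kb of the same chromosome, had their lowest means in P-IV.II for Dhx58 and in SPM for Ifi35.

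The rest of the pathway was measured beside the members. Of 19 type I and type III interferon genes only Ifnb1, the gene of interferon beta, was abundant enough to be tested. It was at 2.00 and 1.40 FPKM in P-IV.I, 5.59 and 0.0383 in P-IV.II, 1.07 and 1.14 in PcDC2, and 0.177 and 0 in SPM, was listed at 0 in PcDC1, and passed in none of the 7 tests. The 2 P-IV.II libraries held both the highest Ifnb1 value and one near 0. The other 18 genes did not exceed 0.372 FPKM in any library, and Ifng, the type II interferon gene, did not exceed 0.342 FPKM.

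The receptor genes came next. Ifnar1 was at 18.8 and 24.02 FPKM in P-IV.I, 9.83 and 12.9 in P-IV.II, 8.01 in PcDC1, 17.5 and 24.96 in PcDC2, and 16.4 and 25.1 in SPM. Ifnar2 ranged from 27.65 to 79.9 FPKM over the libraries, Ifngr1 from 294.6 to 575.1, Ifngr2 from 40.0 to 77.1 and Il10rb from 43.8 to 89.7, while Ifnlr1 did not exceed 0.0975. None of the 5 tested receptor genes passed in any of the 7 tests. P-IV.II had the lowest mean of the replicated groups for all 5.

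IRF9 joins STAT2 in the complex that binds the ISRE. Irf9 was at 55.9 and 48.7 FPKM in P-IV.I, 26.1 and 36.8 in P-IV.II, 45.9 in PcDC1, 47.5 and 61.8 in PcDC2, and 47.3 and 58.3 in SPM. It had its lowest replicated mean in P-IV.II and passed in none of the 7 tests. Jak2, a kinase of the type II receptor, was at 42.3 and 50.9 FPKM in P-IV.I, 12.6 and 16.1 in P-IV.II, 23.9 in PcDC1, 55.4 and 74.7 in PcDC2, and 10.2 and 15.7 in SPM, and changed by 1.64 ± 0.29 in P-IV.I against P-IV.II (limma, adjusted p = 0.0122) and by 2.26 ± 0.29 in PcDC2 against SPM (limma, adjusted p = 0.00115). Of the 10 tested genes of JAK-STAT signalling and its inhibitors, 2 rose in P-IV.I against P-IV.II and 0 fell, where 6.51% of all tested genes were higher and 3.11% lower.

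Irf7, the factor that amplifies type I interferon production, was also lowest in P-IV.II. It was at 19.6 and 23.0 FPKM in P-IV.I, 5.88 and 4.44 in P-IV.II, 34.1 in PcDC1, 28.6 and 20.7 in PcDC2, and 37.8 and 26.2 in SPM. Its change was 1.86 ± 0.29 in P-IV.I against P-IV.II (limma, adjusted p = 0.00635), -2.41 ± 0.29 in P-IV.II against SPM (limma, adjusted p = 0.0110) and -2.05 ± 0.29 in P-IV.II against PcDC2 (limma, adjusted p = 0.00200).

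Among sensors that lead to interferon, the RNA receptors Tlr7 and Tlr8 and the kinase Ikbke were highest in SPM. Tlr8 was at 3.49 and 5.07 FPKM in P-IV.I, 7.35 and 5.52 in P-IV.II, 0.572 and 0.0611 in PcDC2, and 18.4 and 16.9 in SPM, and was listed at 0 in PcDC1. Its change was -3.85 ± 0.29 in PcDC2 against SPM (limma, adjusted p = 8.97e-05). Ikbke was at 0.684 and 2.25 FPKM in P-IV.I, 6.88 and 8.06 in P-IV.II, 0.783 and 0.901 in PcDC2, and 21.2 and 33.6 in SPM, was listed at 0 in PcDC1, and changed by -3.91 ± 0.36 in PcDC2 against SPM (limma, adjusted p = 0.000205). Of the 12 tested genes of this list, counted without the member Zbp1, 4 were lower and 0 higher in PcDC2 against SPM, where 8.46% of all tested genes were lower and 11.2% higher.

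A further list of 69 tested interferon-stimulated genes outside the members was counted in the same way. In P-IV.I against P-IV.II, 11 were higher and 3 lower, with a median of 0.46, where 6.51% of all tested genes were higher and 3.11% lower. Against PcDC2, P-IV.II had 20 lower and 3 higher, with a median of -0.33, where 13.2% of all tested genes were lower and 7.52% higher. In PcDC2 against SPM, 12 were higher and 9 lower, where 11.2% and 8.46% of all tested genes were. In P-IV.II against SPM 0 were higher and 6 lower, where 0.238% and 0.903% of all tested genes were. The largest changes in P-IV.I against P-IV.II belonged to the membrane protein genes Ms4a4c at 4.39 ± 0.45 (limma, adjusted p = 0.00166) and Ms4a6b at 3.37 ± 0.28 (limma, adjusted p = 0.000751), to Ifi205, a relative of Ifi204, at 4.14 ± 0.50 (limma, adjusted p = 0.00253), and to the Schlafen gene Slfn5 at 2.76 ± 0.35 (limma, adjusted p = 0.00315). Ifit3b, the near-copy of Ifit3, was higher by 1.88 ± 0.25 (limma, adjusted p = 0.00371). Slfn1, another Schlafen gene, was the list's extreme in PcDC2 against SPM, at -4.10 ± 0.23 (limma, adjusted p = 2.43e-05), and the list's only gene to pass in the difference of fold changes, at 2.80 ± 0.33 (limma, adjusted p = 0.00978).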

How the data were processed

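The authors deposited FPKM values, called normalized, for 9 libraries, made from SMARTer Ultra Low input cDNA and sequenced on an Illumina NovaSeq per the labels. Per the submitters' processing notes the tools included HISAT2 2.1.0, StringTie 1.3.4d, bcl2fastq 1.8.4 and Cufflinks, with build mm10. Further normalization, the annotation and the handling of reads shared by gene copies were not stated in any source used here. Read depth is unknown, so no counting interval is given. From those values log2(FPKM + 1) was computed, and the 10526 of 24532 genes at 1 FPKM or above in 2 or more libraries entered limma 3.58.1 in R 4.3.3 (lmFit, contrasts.fit, eBayes with a trend) over all 9 libraries, with 4 residual degrees of freedom and 4.02 from the prior. The 6 comparisons and 1 interaction were tested at a Benjamini-Hochberg adjusted p of 0.05. The fit was tested on simulated data. PcDC1 entered no test.

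The members, lists and tests were chosen with earlier results of these data known. Every member is given by role. Full statistics go to the up to 6 passing members with the largest change per comparison, to the 4 highest and lowest PcDC1 differences, and to the passing pathway genes with the largest changes. Alternatives were pseudocounts of 0.1 and 5, 2 other filters, 2 scalings, no variance trend, a fit on the compared groups, a replicate block and leaving out each library. Some results are not reported here.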

Additional observations from a re-analysis of the deposited data

Results flagged for a closer look

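There were 3 members with fold changes that differed between the 2 pairs of labelled dendritic cells and macrophages, by the interaction test in limma. Ifi204 differed by 4.10 ± 0.42 (limma, adjusted p = 0.00666), being 0.31 ± 0.30 for P-IV.I against P-IV.II, against -3.78 ± 0.30 for PcDC2 minus SPM. Oasl2 differed by 2.14 ± 0.37 (limma, adjusted p = 0.0415), with 1.18 and -0.96 in these comparisons. Oas2 differed by 1.97 ± 0.34 (limma, adjusted p = 0.0415), with 0.50 and -1.47. All 3 were highest in SPM.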

How the results depend on the processing

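The number of members past the threshold depended on the processing, and the cause was not tested beyond what each alternative changes. Apart from the splits given above for the rescalings, the shares of all tested genes that passed in these fits are not given. A loss particular to the members therefore cannot be told from a loss of calls over all genes. With a filter of any value above 0, which adds genes to the adjustment, it was 5 for P-IV.I against P-IV.II (9 as reported), 1 in P-IV.II minus SPM (4), 5 in P-IV.I minus SPM (8), 0 in P-IV.I minus PcDC2 (1), 11 in P-IV.II minus PcDC2 (17) and 1 in the interaction (3). With FPKM of at least 5 it was 2 in P-IV.II minus SPM and 2 in P-IV.I minus PcDC2. A pseudocount of 0.1 gave 2 in P-IV.II minus SPM, 5 in P-IV.I minus SPM and 2 in P-IV.I minus PcDC2, and one of 5 gave 0 in P-IV.I minus PcDC2. For P-IV.I against P-IV.II median-ratio rescaling gave 3 and quantile normalization 2, and median-ratio rescaling gave 0 in P-IV.I minus PcDC2. Without a variance trend P-IV.I minus PcDC2 had 2. Fits on only the compared groups gave 2 for P-IV.I against P-IV.II, 0 in P-IV.II minus SPM and 4 in P-IV.I minus SPM. Leaving out single libraries, which also removes samples, gave 1 to 3 for P-IV.I against P-IV.II, 9 to 12 in PcDC2 minus SPM, 0 to 1 in P-IV.II minus SPM, 2 to 4 in P-IV.I minus SPM, 0 in P-IV.I minus PcDC2, 4 to 11 in P-IV.II minus PcDC2 and 1 in the interaction; where it left 1 library in a group, that library was assumed to vary like the others. The replicate numbers were not taken to pair the libraries: deviations of same-numbered libraries correlated at 0.71 for P-IV.II with SPM, 0.55 for P-IV.I with SPM and 0.34 for P-IV.I with P-IV.II, but at 0.053, 0.037 and -0.28 for PcDC2 with P-IV.II, SPM and P-IV.I, and no label gives the numbers a meaning. A replicate block gave 8 in P-IV.II minus SPM, 3 in P-IV.I minus PcDC2 and 7 in the interaction. The score of P-IV.I, P-IV.II, PcDC1, PcDC2 and SPM was 3.43, 2.80, 1.98, 3.28 and 3.79 with a pseudocount of 0.1 and 4.14, 3.89, 3.69, 4.06 and 4.45 with one of 5. It was 3.47 in P-IV.I, 2.88 in PcDC1 and 3.37 in PcDC2 with median-ratio rescaling, and 3.51, 2.90 and 3.40 with quantile normalization. Over 56 pairs of a member and a comparison and 728 alternatives in all, 506 kept the call, 222 lost it and 0 reversed, and 14 pairs passed in every alternative. Unknown read depth limits what can be said of genes near 0.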

Other observations

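The 2 libraries of a group differed most in SPM and P-IV.II. In SPM, Ifi27l2a was at 199.6 and 58.5 FPKM, Bst2 at 66.6 and 21.98, Zbp1 at 60.4 and 18.1 and Isg15 at 12.97 and 3.97, all higher in replicate 1, while Samd9l, at 20.3 and 48.7 FPKM, was higher in replicate 2. In P-IV.II, Isg15 was at 20.7 and 4.93 FPKM, higher in replicate 1 by 1.87 on the log2 scale, and Samd9l was at 10.97 and 33.1. Over the 42 members the difference between replicate 1 and replicate 2 correlated with transcript length with a Spearman's rho of -0.29 in P-IV.I, -0.24 in P-IV.II, 0.21 in PcDC2 and -0.39 in SPM, where all genes with a length gave -0.20 in P-IV.I, -0.080 in P-IV.II, 0.078 in PcDC2 and -0.29 in SPM; genes are not independent replicates, and this is a description. In P-IV.I and PcDC2 the members' differences stayed between -1.08 for Oas3 and 1.05 for Parp14, and between -0.96 for Mx2 and 1.19 for Oas3.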
